A study of Mus musculus with 35 samples.

Results

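The genes described here mark the basophil, mast cell and eosinophil lineages, and there were 9 of them among 55487 genes listed: Mcpt8, Prss34, Cpa3, Ms4a2, Fcer1a, Cd200r3, Hdc, Epx and Prg2. They were taken by name, through Ensembl identifiers, and read in every group, in mRNA and in ribosome footprints. The study measured both in mouse acute myeloid leukemia cells that carry the MLL-AF9 fusion, sorted as GFP-positive cells from the marrow of recipient mice after red cell lysis. Its design asks how chemotherapy with an altered diet, and loss of Ogfod1, change mRNA levels and translation. Ogfod1 is a prolyl hydroxylase that acts on a protein of the small ribosomal subunit.

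All mice were males of 8 to 10 weeks that received leukemia cells by injection. The cells came from a terminally ill mouse and had been expanded in culture with stem cell factor, IL-3 and IL-6, so all groups share 1 leukemia and that culture history. Cells carried a scrambled guide (sgScramble) or a guide against Ogfod1 (sgOgfod1). Vehicle mice ate standard amino acids and received saline (AA vehicle in the labels). Treated mice ate a diet free of branched-chain amino acids and received 5+3 chemotherapy, that is, 100 mg/kg of cytarabine a day for 5 days, joined by 3 mg/kg of doxorubicin during the first 3. Treated mice thus differed from vehicle mice in both diet and drugs, and the 2 cannot be told apart. Under vehicle there were 5 RNA libraries with sgScramble and 5 with sgOgfod1, and under treatment 7 and 6. Footprint libraries came from 12 of the same mice, as 3, 3, 4 and 2 in that order.

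Basophils, mast cells and eosinophils are granulocytes of the marrow and tissues that act in allergy and in defence against parasites. Basophils and mast cells bind IgE through a receptor whose alpha chain is encoded by Fcer1a and whose beta chain by Ms4a2, and they store histamine, which Hdc makes from histidine. Their granules also hold serine proteases and a carboxypeptidase. Eosinophil granules are filled with cationic proteins, among them major basic protein from Prg2 and eosinophil peroxidase from Epx. IL-3, IL-5 and stem cell factor support these cells, and GATA factors are among the regulators of their genes.

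RNA libraries held 31.9 to 142.7 M counts (M for mega, median 56.1 M) and footprint libraries 5.7 to 14.6 M counts (median 9.2 M). Levels are given as CPM, counts per 1 M counts of the scaled library. Ogfod1, which checks the labels, had mean footprint levels of 14.6 ± 0.872 CPM (SD, n = 3) in vehicle sgScramble and 2.42 ± 0.676 CPM (SD, n = 3) in vehicle sgOgfod1 mice, and of 15.0 ± 2.16 (SD, n = 4) and 2.18 ± 1.04 CPM (SD, n = 2) under treatment. In RNA the treated genotypes overlapped, since treated sgScramble replicate 4 had 12.3 CPM of Ogfod1 and treated sgOgfod1 replicate 2 had 13.0 CPM. Among the libraries, vehicle sgOgfod1 replicate 4 stood apart for several of the 9 genes in both assays, and the fold changes below that move most with it are given with and without it.

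The labelled cells held mRNA of some defining genes of these lineages and lacked others. Fcer1a, which the IgE receptor needs on the cell surface, had 0 to 98 counts per RNA library and 0 or 1 count per footprint library. Among mast cell proteases, Mcpt1, Mcpt2, Mcpt4, Mcpt9, Tpsb2, Tpsab1 and Tpsg1 stayed at or under 1.19 CPM in every RNA library, with Mcpt4 at most at 0.499 CPM. Cma1 reached 6.5 CPM, the member Cpa3 reached 597 CPM, and Ctsg, which neutrophils also make, had 243 to 1265 CPM. The shared signalling chain of the receptor, Fcer1g, which other myeloid cells also use, had 522 to 1747 CPM in RNA. The 9 genes are therefore named below by their symbols, without assigning them to a cell type. In bulk samples such as these, fewer cells of a type and less RNA per cell cannot be told apart.

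All 9 genes are protein-coding in the GRCm38 annotation. Mcpt8 lies at chr14:56082166-56085273 on the minus strand, Prss34 at chr17:25298394-25300165 on the plus strand and Cpa3 at chr3:20215620-20242181 on the minus strand. Ms4a2 lies at chr19:11615523-11623719 on the minus strand, Fcer1a at chr1:173221284-173227214 on the minus strand and Cd200r3 at chr16:44943678-44981380 on the plus strand. Hdc lies at chr2:126593667-126619299 on the minus strand, Epx at chr11:87864000-87875536 on the minus strand and Prg2 at chr2:84980461-84983632 on the plus strand. None shares exon bases with another gene. Of their 28-base stretches, 4.53% in Ms4a2, 3.97% in Cd200r3 and 0.58% in Hdc also occur in transcripts of other genes, and 0 in the other 6, so footprint reads of those 3 genes could in part be shared.

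The 150 bases just before the start of transcription are shown for 4 of the genes, Cpa3, Ms4a2 and Prss34 as examples with a match to the motif below and Epx as an example without one. They come from RefSeq (GRCm38.p6), which held such a stretch for 8 of the 9 genes, and run 5′ to 3′ on the gene's strand. Capitals mark GATAA or its reverse complement TTATC, the core bound by GATA factors.
Cpa3, chr3:20242182-20242331, minus strand: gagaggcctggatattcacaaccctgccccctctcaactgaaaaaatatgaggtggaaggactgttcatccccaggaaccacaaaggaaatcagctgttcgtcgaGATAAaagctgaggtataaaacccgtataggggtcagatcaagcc
Ms4a2, chr19:11623720-11623869, minus strand: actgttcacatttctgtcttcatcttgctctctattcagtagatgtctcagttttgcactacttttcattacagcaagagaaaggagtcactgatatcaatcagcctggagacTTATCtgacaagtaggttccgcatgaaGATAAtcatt
Prss34, chr17:25298244-25298393, plus strand: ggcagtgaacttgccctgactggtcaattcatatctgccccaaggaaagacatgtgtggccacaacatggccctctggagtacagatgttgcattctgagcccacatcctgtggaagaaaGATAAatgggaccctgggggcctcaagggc
Epx, chr11:87875537-87875686, minus strand: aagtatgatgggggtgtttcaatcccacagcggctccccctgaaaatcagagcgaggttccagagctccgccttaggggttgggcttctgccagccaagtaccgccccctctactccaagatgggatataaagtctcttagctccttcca
Cpa3 had 1 match, starting at base -45 from the start site, Prss34 had 1 at -30, and Ms4a2 had 2 at -37 and -10. Epx had none in this window. Of the stretches not shown, Fcer1a and Cd200r3 held the letters, and Mcpt8 and Hdc, whose stretches run into annotated transcribed sequence, did not. In all 5 of 8 stretches had a match, and of all 32851 stretches of this length 13.3% did. A match is a description of the letters and not evidence of binding.

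Per kilobase of exon, Prg2 was the most abundant of the 9 in RNA of every vehicle sgScramble mouse. In that group it had 398 ± 77.5 RPKM (CPM per kilobase; SD, n = 5), against 18.5 ± 1.96 for Hdc and 15.3 ± 2.57 for Cpa3. Mcpt8 followed with 5.37 ± 0.555 RPKM, Epx with 3.40 ± 1.51 and Ms4a2 with 1.37 ± 0.331. Cd200r3 had 0.358 ± 0.0459 RPKM, Prss34 0.0895 ± 0.118 and Fcer1a 0.0796 ± 0.128. Hdc and Cpa3 lay within their spread of each other, and so did Prss34 and Fcer1a. Footprints per kilobase of coding sequence gave Prg2 403 ± 87.0 (SD, n = 3), Hdc 32.4 ± 6.33, Cpa3 5.25 ± 1.79, Epx 4.35 ± 1.80 and Mcpt8 1.94 ± 0.715 RPKM, with 0 footprint counts for Prss34, Ms4a2 and Fcer1a in all 3 mice. Cpa3 and Epx did not differ beyond their spread in footprints. The order differed in single mice of other groups: Cpa3 had 394 and Prg2 241 RPKM in RNA of vehicle sgOgfod1 replicate 4, and Hdc had 24.2 and Prg2 5.12 RPKM in treated sgOgfod1 replicate 4.

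**Figure D1:**
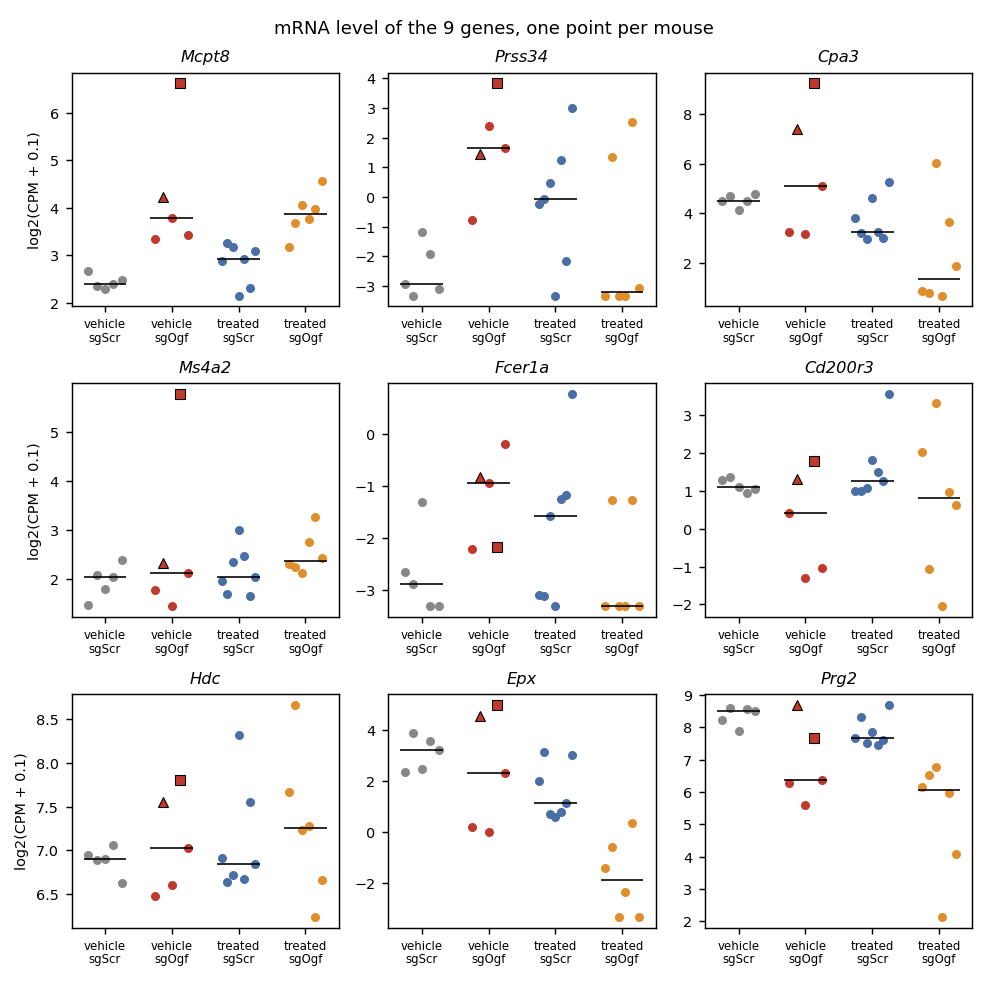
mRNA level of each of the 9 genes on a log2(CPM + 0.1) axis, with 1 point per mouse, the group median as a line, and vehicle sgOgfod1 replicate 2 as a triangle and replicate 4 as a square. Mcpt8 is higher in every vehicle sgOgfod1 mouse than in every vehicle sgScramble mouse, and replicate 4 is the highest of its group for Mcpt8, Prss34, Cpa3, Ms4a2, Cd200r3, Hdc and Epx.

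The basophil protease Mcpt8 was higher in sgOgfod1 than in sgScramble cells of vehicle mice. Its RNA level was 6.26, 5.04, 4.83, 5.19 and 5.48 CPM in vehicle sgScramble replicates 1 to 5, and 10.1, 18.6, 13.7, 98.5 and 10.7 CPM in vehicle sgOgfod1 replicates 1 to 5. The genotypes did not overlap, and replicate 4 was far above the other 4 sgOgfod1 mice. The log2 fold change was 2.50 ± 0.48 (SE; edgeR quasi-likelihood, Benjamini-Hochberg adjusted p = 0.0386; higher in 5 of 5 mice). This was the 1 of 9 genes called in that comparison, where 0.116% of all 21474 genes tested were called. Without replicate 4 the log2 fold change was 1.31 (adjusted p = 0.0745), and the call was also lost without replicate 2 or without any 1 of the 5 sgScramble mice. Under treatment Mcpt8 spanned 4.35 to 9.54 CPM in sgScramble (median 7.49, n = 7) and 8.93 to 23.7 CPM in sgOgfod1 mice (median 14.6, n = 6). The ranges met in 1 treated sgOgfod1 mouse, replicate 1, and the log2 fold change of 1.06 ± 0.40 did not pass the test (adjusted p = 0.247). It passed when vehicle sgOgfod1 replicate 4 was left out of the shared fit (adjusted p = 0.0281).

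Mcpt8 gave no call for treatment in either genotype. The log2 fold change was 0.44 ± 0.43 in sgScramble (adjusted p = 0.56) and -1.0 ± 0.44 in sgOgfod1 cells (adjusted p = 0.149). The latter turned to 0.19 without vehicle sgOgfod1 replicate 4. None of the 9 genes separated treated from vehicle mice without overlap in RNA, where 12.3% of all genes did in sgScramble and 9.57% in sgOgfod1 cells.

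Footprints on Mcpt8 were 1.59, 1.87 and 0.848 CPM in the 3 vehicle sgScramble mice. Vehicle sgOgfod1 replicates 3, 4 and 5 had 3.45, 39.5 and 4.45 CPM, all of them higher. Mcpt8 and Prss34 were the 2 of 6 genes with such a separation under vehicle, against 13.4% of all genes. Prss34 passed the filter on low counts through vehicle sgOgfod1, the higher group here, so its place in that count supports nothing. The log2 fold change of Mcpt8, 3.37 ± 1.02, was not called (adjusted p = 0.145). Without vehicle sgOgfod1 replicate 4 it was 1.48. Treated sgScramble mice had 1.74, 2.38, 2.65 and 1.22 CPM, below the 4.41 and 3.71 CPM of the 2 treated sgOgfod1 mice. Under treatment 2 of the 6 genes separated the genotypes in footprints, Mcpt8 as higher and Prg2 as lower, against 22.7% of all genes in either direction.

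Prss34 encodes another serine protease, a product of basophils and mucosal mast cells. It was nearly absent from vehicle sgScramble mice, with 0.0295, 0, 0.339, 0.161 and 0.0162 CPM in RNA, which were 1, 0, 19, 11 and 1 counts. Vehicle sgOgfod1 mice had 0.482, 2.64, 5.12, 14.1 and 3.05 CPM, all above every vehicle sgScramble mouse. Mcpt8 and Prss34 were thus the 2 of 9 genes whose vehicle genotypes did not overlap with sgOgfod1 higher, against 2.41% of all genes tested. The fitted log2 fold change of Prss34, 5.48 ± 1.72, missed the threshold over all genes (adjusted p = 0.494). When the 2 vehicle groups were fitted alone it passed (adjusted p = 0.0336) and Mcpt8 did not. Treated sgScramble mice spanned 0 to 7.82 CPM (median 0.857, n = 7) and treated sgOgfod1 mice 0 to 5.70 CPM (median 0.00991, n = 6), and 3 of those 6 had no count. The treatment log2 fold change of 4.03 ± 1.60 in sgScramble cells was not called (adjusted p = 0.0997).

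Footprints on Prss34 gave the same order of vehicle groups. They were 0, 0 and 0 counts in vehicle sgScramble mice and 18, 22 and 39 counts, or 2.14, 3.64 and 2.41 CPM, in vehicle sgOgfod1 replicates 3, 4 and 5. Against a floor of 3 counts per library, 0.330 CPM on average, the sgOgfod1 mean of 2.73 ± 0.797 CPM (SD, n = 3) was at least 8.26-fold higher, and the difference passed the test (adjusted p = 0.00332; higher in 3 of 3 mice). It was the 1 of 6 genes tested in footprints that was called by genotype under vehicle, where 1.81% of 18290 genes were. Its counts outside vehicle sgOgfod1 were all 9 or fewer, so it passed the filter on low counts through the group where it was high, and that count of members supports nothing. For Prss34 itself the call held without the filter, and it held on leaving out any 1 footprint library (adjusted p from 0.00114 to 0.0218), and vehicle sgOgfod1 replicate 4 did not stand apart here. Treated mice had 2, 6, 4 and 0 counts with sgScramble and 3 and 9 with sgOgfod1. The treatment effect in sgScramble cells was called as higher (adjusted p = 0.0435), as 1 of 6 genes against 15.6% of all genes, but its levels lay at or near the floor, so no fold is given, and the call was lost on leaving out any 1 of 7 libraries.

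**Figure D2:**
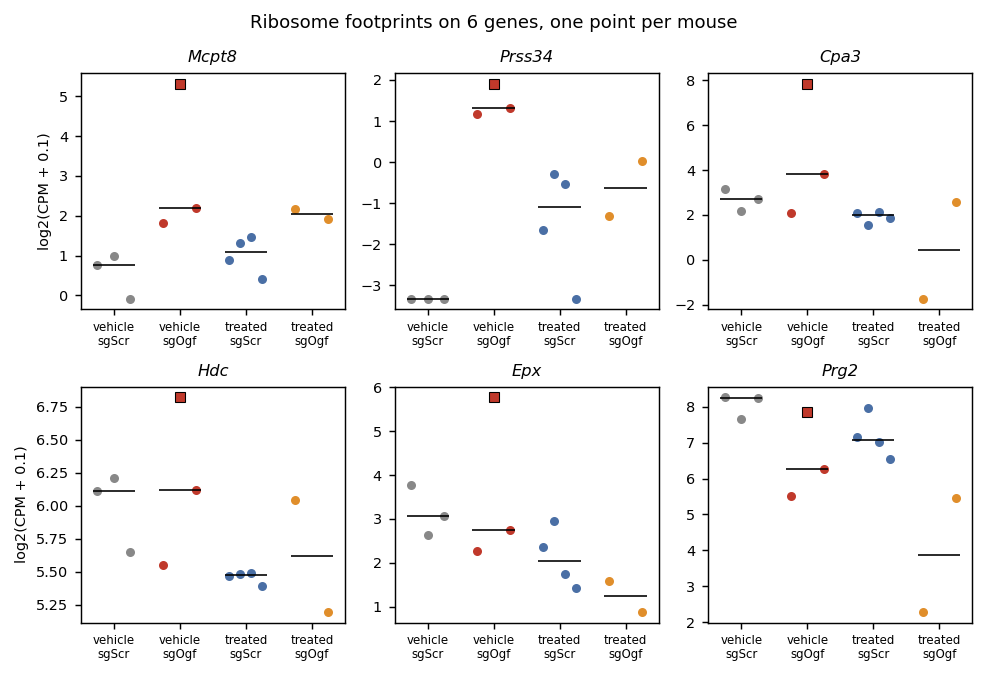
Ribosome footprints on the 6 genes that passed the filter on low counts, on a log2(CPM + 0.1) axis with 1 point per mouse and the group median as a line. The square is vehicle sgOgfod1 replicate 4. The 3 vehicle sgOgfod1 mice lie close together for Prss34, at 2.14 to 3.64 CPM, while the square lies far above the others for Cpa3, at 229 CPM.

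Cpa3, the carboxypeptidase of mast cell granules that basophils also make, varied more among vehicle sgOgfod1 mice than any other of the 9 genes in CPM. Their RNA levels were 9.36, 167, 8.96, 597 and 34.1 CPM, against 22.7, 26, 17.2, 22.7 and 27.2 CPM in vehicle sgScramble mice. Replicates 2 and 4 lay far above the sgScramble range and replicates 1 and 3 below it, so the groups overlapped. The genotype log2 fold change under vehicle was 2.82 ± 1.06 and was not called (adjusted p = 0.817). It was 1.25 without replicate 4 and -0.39 without replicates 2 and 4. Treated sgScramble mice spanned 7.67 to 37.7 CPM (median 9.45, n = 7). Treated sgOgfod1 mice had 1.73, 1.64, 64.1, 1.52, 12.4 and 3.59 CPM, with replicate 3 alone above the vehicle sgScramble range.

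Treatment lowered Cpa3 in sgOgfod1 cells by the test, and the call rested on single mice. The log2 fold change was -3.53 ± 1.02 (adjusted p = 0.0292), with 5 of 6 treated mice below the vehicle median. Cpa3 and Epx were the 2 of 9 genes called in that comparison, against 9.87% of all genes tested. The Cpa3 value was -1.96 (adjusted p = 0.205) without vehicle sgOgfod1 replicate 4, and the call was also lost without vehicle sgOgfod1 replicate 2 or treated sgOgfod1 replicate 1, 2 or 6. Without treated sgOgfod1 replicate 3 it was -5.25 (adjusted p = 0.00196). Footprints on Cpa3 were 4.17, 229 and 14.1 CPM in vehicle sgOgfod1 replicates 3, 4 and 5, against 8.86, 4.37 and 6.46 CPM in vehicle sgScramble mice. Replicate 4 was thus high in both assays. The 2 treated sgOgfod1 mice had 0.201 and 5.77 CPM, and the footprint log2 fold change of treatment, -4.76 ± 1.80, was not called (adjusted p = 0.155). It was -1.68 without vehicle sgOgfod1 replicate 4 and -8.54 without treated sgOgfod1 replicate 5.

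Ms4a2, the beta chain of the IgE receptor, was similar in most mice and high in a single one. It had 3.32, 4.89, 2.60, 54.9 and 4.22 CPM in vehicle sgOgfod1 replicates 1 to 5 and 2.63, 4.10, 3.37, 3.97 and 5.14 CPM in vehicle sgScramble mice. Replicate 4 lay above all other 22 RNA libraries, which spanned 2.60 to 9.53 CPM. The genotype log2 fold change under vehicle, 1.86 ± 0.61, was not called (adjusted p = 0.573) and was -0.03 without that mouse. That of treatment in sgOgfod1 cells, -1.25 ± 0.57 (adjusted p = 0.165), became 0.64 without it. Footprints on Ms4a2 were too few to test, with 68 counts in vehicle sgOgfod1 replicate 4 and 0 to 4 counts in each of the other 11 libraries. In those other mice Ms4a2 was therefore seen in RNA with next to no footprints.

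Fcer1a and Cd200r3 stayed low. Fcer1a, the IgE-binding alpha chain, had 0.116 to 0.768 CPM in vehicle sgOgfod1 mice, or 5 to 38 counts, and 0 to 0.303 CPM in vehicle sgScramble mice, so the groups overlapped. It was not raised in vehicle sgOgfod1 replicate 4, at 0.122 CPM. Cd200r3, an activating receptor of basophils and mast cells, had 1.82 to 2.50 CPM in vehicle sgScramble and 0.306 to 3.34 CPM in vehicle sgOgfod1 mice. Under treatment it spanned 1.89 to 11.7 CPM with sgScramble and 0.142 to 9.95 CPM with sgOgfod1, with treated sgScramble replicate 7 and treated sgOgfod1 replicate 3 as the highest. Neither gene was called in any RNA comparison, and neither passed the footprint filter.

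Hdc, histidine decarboxylase, gave no call in either assay. Under vehicle it spanned 98.3 to 133 CPM with sgScramble and 89.1 to 224 CPM with sgOgfod1, and under treatment 99.5 to 321 and 75.2 to 407 CPM. The 4 ranges overlapped. The highest values came from treated sgOgfod1 replicate 2 and treated sgScramble replicate 4. Vehicle sgScramble mice had 68.9, 74.0 and 50.1 footprint CPM. Their treated counterparts, at 44.2, 44.6, 45.0 and 41.9, all lay lower. The log2 fold change of -0.55 ± 0.29 was not called (adjusted p = 0.234). With these 2 groups fitted alone it passed as lower (adjusted p = 0.00415), and 2 members in all were called, both lower. Among the 6 tested genes, 2 did not overlap as lower between these groups, Hdc and Cpa3, against 16.1% of all genes.

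The eosinophil granule gene Epx was lowest in treated sgOgfod1 mice. Their RNA levels were 0.282, 0.574, 0, 0.0949, 1.17 and 0 CPM, or 14, 35, 0, 4, 71 and 0 counts. Vehicle sgOgfod1 mice had 1.06, 23.8, 0.918, 32 and 4.97 CPM, with replicates 2 and 4 high, and vehicle sgScramble mice had 5.02, 14.6, 5.55, 12.0 and 9.33 CPM. Treated sgScramble mice had 3.91, 8.67, 1.53, 1.40, 1.63, 2.09 and 8.00 CPM, all above every treated sgOgfod1 mouse. Treatment lowered Epx in sgOgfod1 cells, with a log2 fold change of -5.11 ± 1.00 (adjusted p = 0.00223; below the vehicle median in 6 of 6 mice). This call held on leaving out any 1 RNA library, with values from -5.96 to -4.41 and adjusted p from 0.000932 to 0.00939. Without vehicle sgOgfod1 replicates 2 and 4 together it was -2.68 and no longer passed (adjusted p = 0.116). In sgScramble cells the treatment value was -1.26 ± 0.82 (adjusted p = 0.348), and the difference between genotypes, tested as an interaction, was -3.85 ± 1.27 (adjusted p = 0.913).

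Prg2, which encodes major basic protein, had its lowest levels in treated sgOgfod1 mice. They had 71.7, 92.0, 110, 4.29, 62.4 and 16.8 CPM, against 203, 319, 184, 230, 175, 195 and 416 CPM in treated sgScramble mice. The 2 groups did not overlap. Vehicle sgScramble mice had 301, 391, 235, 379 and 363 CPM, and vehicle sgOgfod1 mice 78.3, 411, 48.2, 202 and 83.1 CPM, where replicate 2 alone exceeded the sgScramble range. Treated and vehicle sgOgfod1 mice overlapped, and the treatment log2 fold change in sgOgfod1 cells, -1.47 ± 0.55, was not called (adjusted p = 0.0933). Nor was the genotype log2 fold change of Prg2 under vehicle, -1.02 ± 0.58. The genotype log2 fold change under treatment was -2.05 ± 0.53 for Prg2 (adjusted p = 0.0838; lower in 6 of 6 mice) and -3.41 ± 0.91 for Epx (adjusted p = 0.0953; lower in 6 of 6), and neither passed. By edgeR, 0 of 9 genes were called there, 3 had an unadjusted p below 0.05, and 0.391% of all genes were called. DESeq2 called both, at adjusted p = 0.0114 and 0.0118. Epx also passed in edgeR without treated sgOgfod1 replicate 5 or treated sgScramble replicate 4 (adjusted p of 0.0462 to 0.0474). Epx and Prg2 were the 2 genes whose treated genotypes did not overlap with sgOgfod1 lower, against 0.21% of all genes.

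Footprints on Prg2 followed its RNA. Vehicle sgScramble mice had 306, 202 and 301 CPM, and vehicle sgOgfod1 mice 46.0, 230 and 76.1 CPM. Treated sgScramble mice had 141, 248, 130 and 93.2 CPM, and the 2 treated sgOgfod1 mice 4.81 and 43.9 CPM. Both treated sgOgfod1 mice lay below every other library. The genotype log2 fold change under treatment was -2.66 ± 0.96 and was not called (adjusted p = 0.232), while DESeq2 called it (adjusted p = 0.0482). It was -1.81 without treated sgOgfod1 replicate 4 and -4.99 without replicate 5. On Epx, footprints were 4.76, 54.5 and 6.67 CPM in vehicle sgOgfod1 and 2.91 and 1.75 CPM in treated sgOgfod1 mice, without overlap. Treated sgScramble mice had 5.01, 7.63, 3.24 and 2.58 CPM. The treated genotypes, separate in Epx RNA, thus overlapped in Epx footprints, and the log2 fold change of -1.0 ± 1.25 was not called (adjusted p = 0.757). Epx, Prg2 and Prss34 were the 3 of 6 genes whose footprints did not overlap as lower with treatment in sgOgfod1 cells, against 19.1% of all genes. Prss34 passed the filter on low counts through vehicle sgOgfod1, the higher group here, so its place in that count supports nothing. The treatment log2 fold changes in sgOgfod1 cells were -3.15 ± 1.21 for Epx (adjusted p = 0.161) and -2.26 ± 0.97 for Prg2 (adjusted p = 0.211). Without vehicle sgOgfod1 replicate 4 they were -1.31 and -1.34, and without treated sgOgfod1 replicate 5 that of Prg2 was -4.58.

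**Figure D3:**
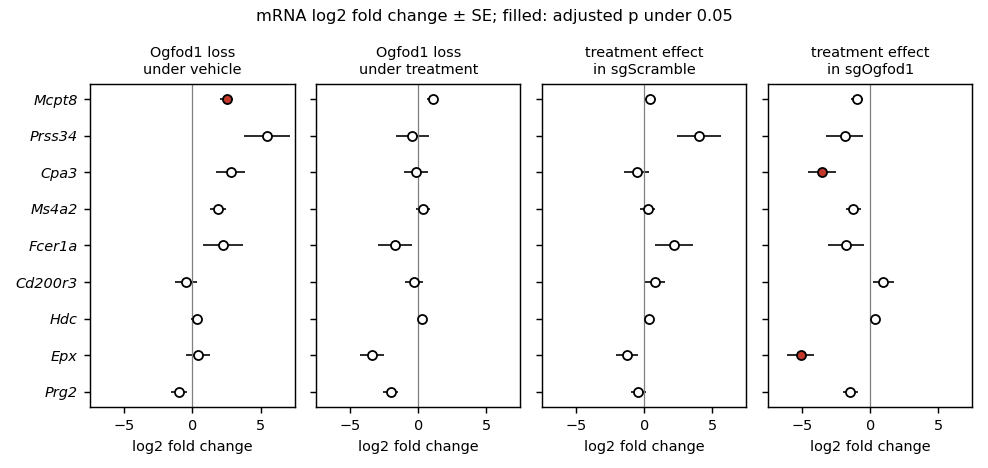
mRNA log2 fold change of the 9 genes with its standard error, in 4 comparisons, with sgOgfod1 over sgScramble in the first 2 panels and treated over vehicle in the last 2. Filled points passed an adjusted p of 0.05: Mcpt8 for Ogfod1 loss under vehicle, and Cpa3 and Epx for treatment in sgOgfod1 cells.

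In the comparisons not yet counted, none of the 9 genes was called by edgeR. Treatment in sgScramble cells changed 0 of 9 in RNA, with 1 at an unadjusted p below 0.05 and 0 by DESeq2, where 12.9% of all genes were called. The RNA interaction gave 0 of 9, with 4 at an unadjusted p below 0.05, 0 by DESeq2 and 0% of all genes. In footprints, treatment in sgOgfod1 cells gave 0 of 6, with 4 at an unadjusted p below 0.05, 2 by DESeq2 (Cpa3 and Epx) and 8.22% of all genes. Ogfod1 loss under treatment gave 0 of 6, with 1 at an unadjusted p below 0.05, 1 by DESeq2 (Prg2) and 1.58% of all genes. The footprint interaction gave 0 of 6, with 1 at an unadjusted p below 0.05, 0 by DESeq2 and 0.0656% of all genes. Prss34 was that 1 gene, and it was also among the 4 for footprints under treatment in sgOgfod1 cells. It passed the footprint filter through vehicle sgOgfod1, so its place in these counts supports nothing.

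The median log2 fold change over the 9 genes in RNA was 1.86 for Ogfod1 loss under vehicle and -0.33 under treatment, against -0.01 and -0.04 over all genes tested. For treatment it was 0.34 in sgScramble and -1.47 in sgOgfod1 cells, against -0.01 and 0.00. The 1.86 is the value of Ms4a2, which was -0.03 without vehicle sgOgfod1 replicate 4, and Cpa3 and Epx, at 2.82 and 0.43, were 1.25 and -0.27 without it. The median without that mouse was not computed. These comparisons share groups, so their values are not independent of each other.

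Translation efficiency, meaning footprints relative to RNA of the same mouse, showed no called change for any of the 9 genes in edgeR. The share of all 28606 genes called was 0.93% for treatment in sgScramble, 0.0839% for treatment in sgOgfod1 cells, 0.0594% for Ogfod1 loss under vehicle and 0.0489% under treatment. At an unadjusted p below 0.05 there were 2, 1, 3 and 0 of the 9 in that order. Ms4a2 was among them in every comparison but Ogfod1 loss under treatment, and was the only 1 for treatment in sgOgfod1 cells. It had too few footprints for the footprint test, with 0 counts in all 3 vehicle sgScramble mice. Only vehicle sgOgfod1 replicate 4, with 68 counts, lay far above the floor, and the other libraries had 0 to 4 counts. The values of Ms4a2 here rest on counts at or near the floor and, where vehicle sgOgfod1 was compared, on that mouse. The ratio of footprint to RNA CPM for Hdc was 0.571 ± 0.0563 (SD, n = 3) in vehicle sgScramble and 0.414 ± 0.0338 (SD, n = 4) in treated sgScramble mice. These ranges, 0.51 to 0.621 and 0.369 to 0.448, did not overlap, but the log2 change of -0.42 ± 0.13 was not called (adjusted p = 0.137). Among protein-coding genes alone it passed narrowly (adjusted p = 0.0486).

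For Prg2 the ratio ran from 0.783 to 0.861 in vehicle sgScramble and from 0.916 to 1.14 in vehicle sgOgfod1 mice, with a log2 difference of 0.25 ± 0.16 (adjusted p = 0.778). Cpa3 had ratios of 0.238 to 0.34 and 0.384 to 0.465 in the same groups, a log2 difference of 0.52 ± 0.22 (adjusted p = 0.634). For Mcpt8 the log2 difference was 0.35 ± 0.34 (adjusted p = 0.847). In vehicle sgOgfod1 replicate 4 the ratio of Cpa3 was 0.384, against 0.465 and 0.415 in the other 2 mice of its group. For Epx the ratio ran from 0.886 to 1.10 in vehicle sgScramble mice and was 30.7 in treated sgOgfod1 replicate 4, where it rested on 29 footprint and 4 RNA counts.

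**Figure D4:**
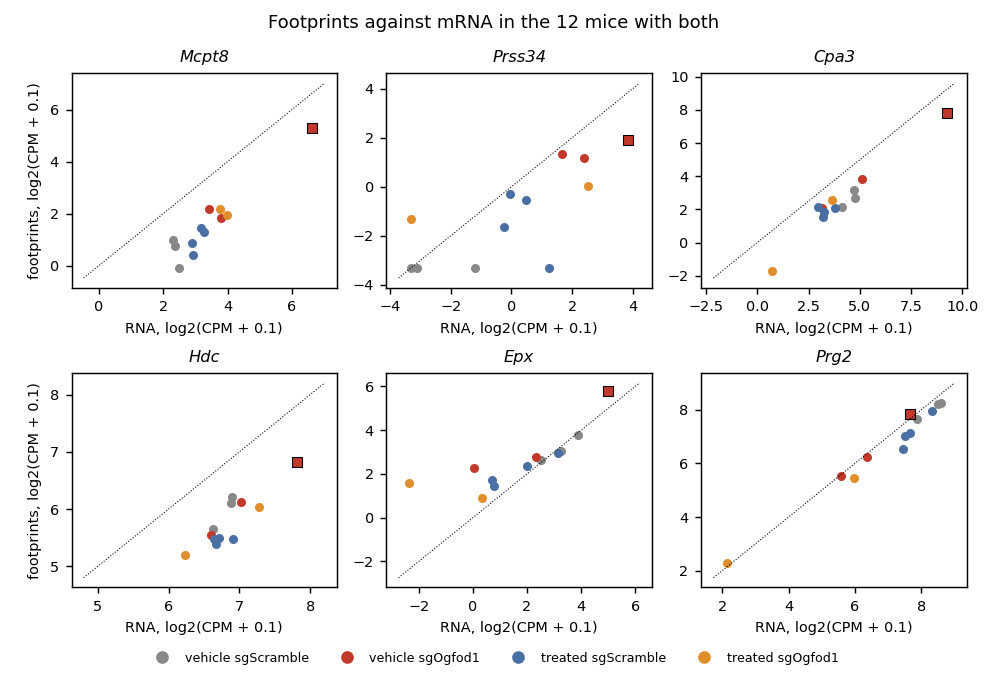
Footprints against mRNA for 6 of the genes in the 12 mice with both assays, each axis as log2(CPM + 0.1), coloured by group, with equality as a dotted line and vehicle sgOgfod1 replicate 4 as a square. For Cpa3 the square lies far to the upper right, at 597 CPM in RNA and 229 CPM in footprints, as the highest mouse on both axes.

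The summed CPM of most lists of other lineage genes did not rise with the members in vehicle sgOgfod1 replicate 4. Its summed RNA level was the lowest of its group for basophil genes (500 CPM against 667 to 743), eosinophil genes (477 against 495 to 633), IgE receptor signalling (2853 against 3206 to 3781), cytokine receptors (1040 against 1130 to 1187) and lineage transcription factors (706 against 780 to 888). It was the highest for mast cell protease and granule genes (4888 against 3370 to 3797) and inside the range for histamine and eicosanoid genes. In footprints its eosinophil sum was instead the highest of the group, at 256 CPM against 205 to 227. Its footprint sum for histamine and eicosanoid genes was the lowest, at 717 CPM against 781 to 870, and the remaining of these lists kept their place. Such sums follow the most abundant genes of a list and hardly register scarce ones, so they do not show whether a lineage rose. Single genes of these lists were high in replicates 2 and 4. Gata1, a transcription factor of mast cells, eosinophils and erythroid cells, had 3.93 and 6.21 CPM in vehicle sgOgfod1 replicates 2 and 4, against 0.154, 0.765 and 0.909 CPM in replicates 1, 3 and 5 and 0.325 to 0.455 CPM in vehicle sgScramble mice. The IL-33 receptor gene Il1rl1 had 3.77 and 15.4 CPM in those 2 mice and 0.590 to 1.17 CPM in the other 3. Mast cell chymase, Cma1, had 1.40 and 6.5 CPM there and 0 to 0.101 CPM in the other 3. Cma1 footprints were 4.30 CPM in replicate 4 and 0 and 0.185 CPM in replicates 3 and 5. The eosinophil genes Prg3 and Ear1 had 134 and 12.7 CPM in replicate 2 and 66.8 and 10.4 CPM in replicate 4, against at most 34.4 and 2.45 CPM in the other 3. Gata1, Il1rl1, Cma1, Prg3 and Ear1 were picked here after their values were seen and do not stand for their lists.

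**Figure D5:**
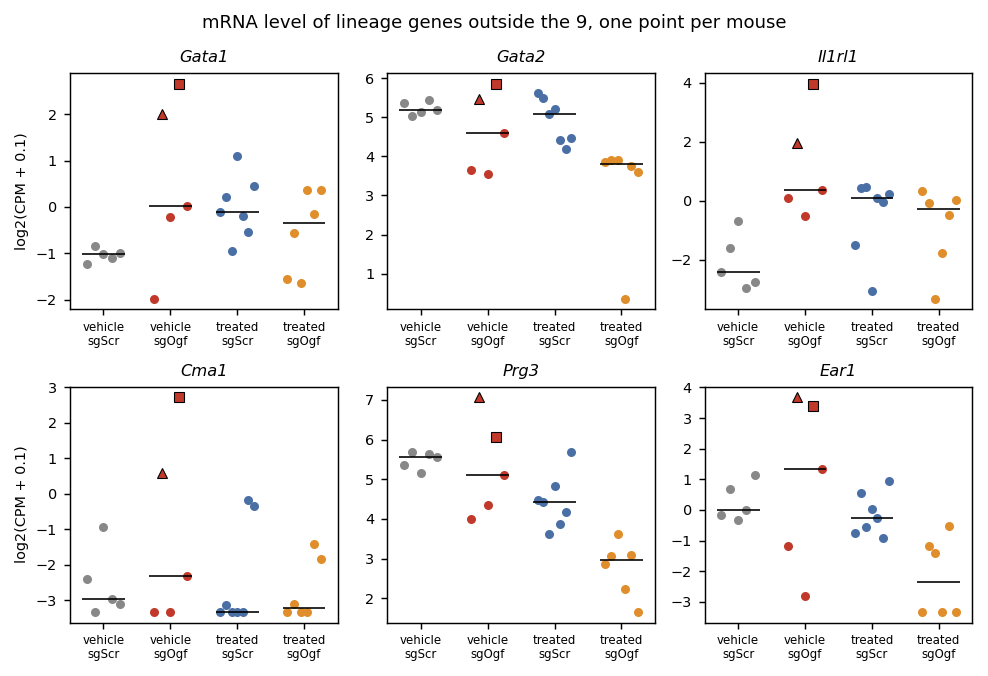
mRNA level of 6 lineage genes outside the 9 on a log2(CPM + 0.1) axis, with 1 point per mouse, the group median as a line, and vehicle sgOgfod1 replicates 2 and 4 as a triangle and a square. Both are the highest of their group in each panel, with Cma1 at 1.40 and 6.5 CPM. The genes other than Gata2 were picked after their values were seen.

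Receptors for the growth factors of these lineages lay at different levels, and Il5ra was nearly absent from treated sgOgfod1 mice. Kit, the stem cell factor receptor, had 204 to 278 CPM in vehicle sgScramble and 142 to 233 CPM in vehicle sgOgfod1 mice, and fell with treatment in sgScramble cells (log2 fold change -1.94 ± 0.46, adjusted p = 0.00703). Il3ra, the IL-3 receptor alpha chain, had 9.77 to 15.5 CPM in vehicle sgScramble mice, and its footprints fell with treatment there (-1.08 ± 0.16, adjusted p = 0.000614). Il5ra, the IL-5 receptor alpha chain, was low, with 0 to 0.230 CPM in treated sgOgfod1 and 0.405 to 5.63 CPM in treated sgScramble mice, and it was lower by genotype under treatment (-4.63 ± 1.04, adjusted p = 0.0464). Gata2 had 1.19 to 15.0 CPM in treated sgOgfod1 and 18.1 to 48.9 CPM in treated sgScramble mice, without overlap, but it was not called by genotype. Of all genes tested, 0.21% did not overlap as lower in that comparison.

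Treatment changed 12.9% of all genes tested in RNA of sgScramble and 9.87% in sgOgfod1 cells, the shares against which the counts of the lists below are read. Of 8 tested mast cell protease and granule genes, 1 rose with treatment in sgScramble cells and 2 in sgOgfod1 cells, among them Serpinb1a, a protease inhibitor (0.70 ± 0.18 and 0.75 ± 0.19, adjusted p = 0.0115 and 0.0118). Of 15 basophil surface and effector genes, 8 rose and 1 fell in sgScramble, and 6 rose and 1 fell in sgOgfod1 cells. They were led by the chemokine Ccl4 (3.43 ± 0.50 and 3.54 ± 0.52, adjusted p = 0.000143 and 0.000164). The members Mcpt8, Prss34, Ms4a2, Fcer1a and Cd200r3 were not called for treatment in RNA of either genotype. Of 12 eosinophil genes, 4 rose and 1 fell, and 4 rose and 3 fell, in the same order. In sgOgfod1 cells the fallen ones included Prg3, a homolog of Prg2 (-2.90 ± 0.46, adjusted p = 0.000384), and the ribonuclease gene Ear1 (-4.63 ± 1.06, adjusted p = 0.00681), and the risen ones Thbs1, a matrix protein of platelets and myeloid cells (3.63 ± 0.55, adjusted p = 0.000215). Ear genes are near-identical copies whose reads could be split, so their values are uncertain. The medians over the 3 lists were 0.49, 1.19 and 1.09 in sgScramble and 0.34, 1.37 and 0.20 in sgOgfod1 cells.

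Of 20 genes of IgE receptor signalling, 2 rose and 1 fell with treatment in sgScramble and 0 rose and 2 fell in sgOgfod1 cells. These shares lie near those of all genes. Pik3cd, a phosphoinositide kinase subunit, fell in both (-0.55 ± 0.16 and -0.72 ± 0.17, adjusted p = 0.0251 and 0.00801). Of 16 genes for histamine and eicosanoids, 4 rose in sgScramble and 6 in sgOgfod1 cells, among them the lipoxygenase Alox5 (2.04 ± 0.32 and 1.67 ± 0.32, adjusted p = 0.000264 and 0.0019). Of 14 cytokine receptor and signal genes, 2 rose and 1 fell, and 3 rose and 4 fell, in that order. Of 19 lineage transcription factors, 5 rose and 2 fell in sgScramble, and 7 rose and 4 fell in sgOgfod1 cells. For Ogfod1 loss under vehicle none of these 7 lists had a called gene in RNA by edgeR, with 0 to 5 members at an unadjusted p below 0.05. Of all genes 0.116% were called. In footprints 1 of 4 mast cell, 1 of 10 eosinophil and 1 of 12 cytokine receptor genes were called lower, against 1.81% of all genes. In RNA under treatment, 2 of 12 eosinophil and 1 of 14 cytokine receptor genes were called lower by genotype. Of 19 transcription factors 1 was called higher, and of all genes 0.391% were called. Some genes are in several lists.

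Markers of other cell types moved with treatment. Their part in the values above was not tested. Of 14 tissue macrophage markers, 13 rose in sgScramble and 10 in sgOgfod1 cells. The summed level of that list ran under vehicle from 885 to 1265 CPM with sgScramble and 703 to 1038 CPM with sgOgfod1, and under treatment from 1031 to 6630 and 997 to 2494 CPM. Of 15 neutrophil markers, 9 and 8 rose, with sums of 9165 to 15216, 10307 to 19520, 21257 to 57166 and 22317 to 84553 CPM. Of 9 monocyte markers, 4 and 7 fell, with sums of 2009 to 2169, 1185 to 3307, 616 to 1777 and 603 to 1379 CPM. By genotype under vehicle 0 of these 38 markers were called in RNA, where 0.116% of all genes were, with 4 at an unadjusted p below 0.05.

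Erythroid markers, of which Gata1 is a known regulator, were not called in RNA by genotype under vehicle either, but 8 of 12 had an unadjusted p below 0.05, with a median log2 fold change of 2.93. The share of all genes with such an unadjusted p was not computed. In footprints 1 of 7 was called higher, where 1.81% of all genes were called in either direction. In translation efficiency 2 of 12 were called lower, where 0.0594% of all genes were called. Their summed RNA level ran from 99.0 to 106 CPM in vehicle sgScramble and from 137 to 174 CPM in vehicle sgOgfod1 mice. Vehicle sgOgfod1 replicate 4 had 163 CPM, inside the range of the other 4 mice. The same mouse had the lowest sums of its group for monocyte markers, at 1185 CPM against 2260 to 3307, and neutrophil markers, at 10307 CPM against 13818 to 19520. Its sum for T and NK cell markers was the highest, at 96.9 CPM against 48.9 to 59.6. In footprints its T and NK cell sum was inside the range (13.7 CPM against 8.33 to 13.9) and its erythroid sum was the lowest (113 CPM against 132 to 152). Whether these differences bear on its high Mcpt8, Cpa3 and Ms4a2 was not tested.

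The genes most like the members across the 23 RNA libraries differed from member to member. For Epx the closest by Spearman correlation of log2 CPM were Ikzf3 (0.92), Prg3 (0.91) and Ear1 (0.89), and for Prg2 they were Prg3 (0.84), Ikzf3 (0.83) and Tef (0.80). Cpa3 was most like Slc25a4 (0.83) and Prg3 (0.82), and Mcpt8 was most like Rabl2 (0.83) and Enpp4 (0.82). After group means were removed, Prg2 stayed closest to Prg3 (0.89), Epx came closest to Hrh4 (0.85), a histamine receptor, and the mean of the 9 genes came closest to Ear1 (0.82) and Prg3 (0.82). Among the members themselves, Cpa3 with Cd200r3 (0.71), Epx with Prg2 (0.66) and Cpa3 with Prg2 (0.60) were the closest pairs on that scale, and Mcpt8 with Hdc had -0.28. These are descriptions over libraries that share depth and groups.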

How the data were processed

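RNA (Smart-seq2, without strand or molecular identifiers) and RNase I footprints were sequenced from lysates of sorted cells. The authors deposited whole-number read counts per gene. The tools listed in the submitters' processing notes are featureCounts, STAR, Bowtie2, cutadapt and SAMtools, and the builds GRCm38 and mm10. Their versions and the treatment of shared reads are not given in the sources used here.

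Identifiers were named through the GENCODE M21 annotation (55141 of 55487 matched). Counts were fitted per assay with edgeR 4.0.16 (R 4.3.3) after filtering low counts and TMM scaling, with 4 groups in 1 quasi-likelihood model (19 residual degrees of freedom for RNA, 8 for footprints). Translation efficiency was the assay-by-group term with the mouse as a block, in the 12 mice with both assays. In 10 of 10 cases a footprint library correlated best with RNA of its own mouse. A gene was called at a Benjamini-Hochberg adjusted p of 0.05 over all genes tested. Of the 9 genes, 9 passed the RNA filter and 6 the footprint filter, without Ms4a2, Fcer1a and Cd200r3. SE was derived from the fold change and its F statistic, and p-values measure the spread between mice. A floor of 3 counts per library covers counting error only.

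All 9 genes were named in each comparison, with at most 4 called genes of each other list, smallest p first, and levels of IgE receptor, cytokine receptor and GATA genes. Levels of the mast cell proteases, Ctsg, Prg3 and Ear1 were given outside this rule. The genes most like each member were the 5 protein-coding genes with the highest correlation. The members and lists were chosen with earlier results of these data known. Alternatives were DESeq2 1.42.0, no filter, other sets of libraries or genes, a replicate block, and leaving out each library. The fits were tested on simulated data.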

Additional observations from a re-analysis of the deposited data

Results flagged for a closer look

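In 45 groups of 4 to 7 libraries, 10 held a sample whose gap to its nearest neighbour was large for the range of its group. Chance gives about 1 in 20 for normally spread, separate groups. These CPM values were not log-scaled and include zeros, and the same mice recur across genes, so that rate does not hold here. Vehicle sgOgfod1 replicate 4 was such a sample in RNA for Mcpt8 at 98.5 CPM, Cpa3 at 597 CPM and Ms4a2 at 54.9 CPM. Treated sgScramble replicate 7 was highest and far from the others for Prss34 at 7.82 CPM, Cd200r3 at 11.7 CPM and Fcer1a at 1.60 CPM. Hdc reached 321 CPM in treated sgScramble replicate 4, and Cpa3 reached 64.1 CPM in treated sgOgfod1 replicate 3. Fcer1a stood apart at 0.303 CPM in vehicle sgScramble replicate 3 and, in footprints, at 0.119 CPM in treated sgScramble replicate 2, where it rested on 1 count.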

How the results depend on the processing

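Counts of called members are given here against the edgeR values of the report. In RNA, the 2 called for treatment in sgOgfod1 cells became 1 without the filter on low counts, with only the groups compared, with a library number term, or with the replicate block, and 0 with only the mice that have footprints or without vehicle sgOgfod1 replicates 2 and 4, an alternative chosen after seeing the data. The 1 called for Ogfod1 loss under vehicle became 0 under no filter, the replicate block, only mice with footprints, and without those 2 mice. For Ogfod1 loss under treatment, 0 became 2 by DESeq2 and 1 without those 2 mice. In footprints, treatment in sgScramble went from 1 to 2 with only the groups compared and 0 with the replicate block or the library number term, and treatment in sgOgfod1 from 0 to 2 by DESeq2 and 1 without the filter or with the replicate block. Ogfod1 loss went from 1 to 0 with the replicate block under vehicle and from 0 to 1 by DESeq2 under treatment, and the interaction from 0 to 1 without the filter. In translation efficiency, 0 became 1 with protein-coding genes only for treatment in sgScramble and for Ogfod1 loss under vehicle, and without the filter 1, 2 and 1 for treatment in sgOgfod1 and Ogfod1 loss under vehicle and under treatment. Leaving out 1 library gave 1 to 2 for RNA treatment in sgOgfod1, 0 to 1 for both RNA Ogfod1 comparisons, and 0 to 1 for footprints under treatment in either genotype.

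These RNA log2 fold changes reversed. Without vehicle sgOgfod1 replicate 4, and then without replicates 2 and 4, treatment in sgOgfod1 gave 0.19 and 0.42 for Mcpt8 and 0.64 and 0.80 for Ms4a2, and Ogfod1 loss under vehicle gave -0.03 and -0.17 for Ms4a2 and -0.27 and -1.99 for Epx. Without both, Cpa3 gave -0.39. The replicate block gave -0.22 for Epx under vehicle, and the library number term 0.31 for Prg2 under treatment in sgScramble. Leaving out 1 library gave -1.22 to 0.19 for Mcpt8 and -1.52 to 0.64 for Ms4a2 under treatment in sgOgfod1, and -0.03 to 2.13 for Ms4a2 and -0.27 to 0.73 for Epx under Ogfod1 loss with vehicle. The cause was not tested. Replicate numbers did not pair mice across groups: 31 same-numbered RNA pairs had correlations of -0.63 to 0.48, and 3 of 22 libraries correlated best with their own number. With 2 or 3 footprint libraries in most groups, and few counts on Ms4a2, Fcer1a and Prss34, small differences were not detectable at this depth.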
